A study of Mus musculus with 7 samples.

Results

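Chromatin that carried an ATAC-seq peak in proB cells of both WT and Rescue mice, and in none of the other B-lineage populations profiled, formed 1251 of 145247 union regions, or 0.861% of them. ATAC-seq reads out the DNA that a transposase can reach, and a peak is a stretch where sequenced fragments pile up above background. Union regions were made by merging the overlapping peaks of all 7 libraries. The 1251 regions were selected on the peak calls themselves, which is why their presence in both proB libraries and their absence elsewhere is a description and not a finding.

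The WT mice were Ergfl/fl and gave a library at each of 3 stages, namely pre-proB, proB and preB. The Erg KO mice were Rag1CreT/+;Ergdelta/delta and were sampled at the pre-proB stage, where their B lineage stops. The Rescue mice were Rag1CreT/+;Ergdelta/delta;IgHVH10tar and were sampled at all 3 stages. The product of Erg is a transcription factor of the ETS family, and the Rag1Cre transgene deletes its floxed exon in lymphoid progenitors, so that Erg KO and Rescue cells both lack Erg. IgHVH10tar is a knock-in heavy chain that is already rearranged, heterozygous (IgHVH10tar/+) per the study, and Rescue cells therefore pass the checkpoint with a restricted repertoire. Per the methods of the study, cells were sorted by surface markers and lacked IgM and IgD. Each group was 1 library, and the number of animals behind it is not given in the sources used here. There was no Erg KO proB library, and WT and Rescue proB differ in Erg, in the Rag1Cre transgene, which the WT mice lack, and in the heavy chain together.

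B-cell progenitors pass through ordered stages in the bone marrow. Pre-proB cells are not yet committed, proB cells express Ebf1 and Pax5 and join variable segments of the heavy chain locus, and preB cells have a heavy chain and go on to rearrange a light chain. EBF1 is a factor that binds a palindromic site and can open chromatin at B-lineage genes, while ETS and RUNX proteins bind at many enhancers of blood cells.

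The stage labels of the Rescue libraries conflict. The titles, which set the groups here, name them pre-proB, proB and preB, whereas the source names give proB, preB and pre-proB for the same libraries. At a start site of Pax5, the factor that commits cells to the B lineage, the library titled Rescue proB had a peak with a fold of 29.8 over background and the library titled Rescue preB one of 45.8, and the library titled Rescue pre-proB had none. WT proB had a fold of 28.1 there. By source name the Rescue proB library would be the one without a Pax5 start site peak, and only 344 regions would have been open in WT proB and that library alone. Regions with a peak in WT pre-proB, Erg KO pre-proB and the Rescue library of the same title, and nowhere else, numbered 16647. Their number was 28 with the Rescue library whose source name is pre-proB.

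The sequences of 7 members are shown for the letters they carry, since DNA sequence played no part in the choice of members. They are the strongest members with the EBF1, ETS or RUNX letters within 100 bp of the WT proB summit, ranked by the lower of their percentiles in the proB lists. Members whose window touched an exon of the full annotation, Map7d2 below among them, were passed over, and each member is shown for 1 pattern only. Each runs 5′ to 3′ on the plus strand of GRCm38 (mm10), from the RefSeq genome, over 201 bases centred on the summit. In the first set the capitals mark the EBF1 palindrome TCCCNNGGGA.

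St8sia2 (chr7:73936244-73936444): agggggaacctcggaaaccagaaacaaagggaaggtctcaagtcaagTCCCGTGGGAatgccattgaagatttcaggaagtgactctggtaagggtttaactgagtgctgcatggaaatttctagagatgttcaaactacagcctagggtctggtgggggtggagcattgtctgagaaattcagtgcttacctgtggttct
Hemk1 (chr9:107325230-107325430): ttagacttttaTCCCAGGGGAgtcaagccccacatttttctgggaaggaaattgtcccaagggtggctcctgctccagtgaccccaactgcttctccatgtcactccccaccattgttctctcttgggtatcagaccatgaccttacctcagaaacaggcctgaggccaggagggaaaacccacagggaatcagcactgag
Extl2 (chr3:116017524-116017724): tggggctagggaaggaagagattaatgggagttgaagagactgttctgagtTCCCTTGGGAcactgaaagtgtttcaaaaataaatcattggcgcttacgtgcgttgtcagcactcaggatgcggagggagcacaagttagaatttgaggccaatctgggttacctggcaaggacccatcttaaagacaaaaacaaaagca

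The St8sia2 region lay 2577 bp past the 3′ end of St8sia2, a sialic acid transferase gene, and the Hemk1 region 1361 bp past the 3′ end of Hemk1, a methyltransferase gene. The Extl2 region lay in intron 2 of Extl2, a glycosyltransferase gene. In the second set the capitals mark the ETS letters ACAGGAA, read on the other strand as TTCCTGT, in Rasa3 and Tmem215, and the RUNX letters TGTGGTT in Tpm1 and Klf6.

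Rasa3 (chr8:13614796-13614996): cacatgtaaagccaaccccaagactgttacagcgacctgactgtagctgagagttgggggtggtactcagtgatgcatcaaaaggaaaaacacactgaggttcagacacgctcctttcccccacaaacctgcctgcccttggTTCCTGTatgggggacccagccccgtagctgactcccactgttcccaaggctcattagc
Tmem215 (chr4:40573430-40573630): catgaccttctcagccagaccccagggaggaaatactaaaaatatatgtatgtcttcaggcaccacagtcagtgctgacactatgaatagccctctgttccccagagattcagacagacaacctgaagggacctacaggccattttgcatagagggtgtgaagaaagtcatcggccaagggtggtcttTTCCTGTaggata
Tpm1 (chr9:67160524-67160724): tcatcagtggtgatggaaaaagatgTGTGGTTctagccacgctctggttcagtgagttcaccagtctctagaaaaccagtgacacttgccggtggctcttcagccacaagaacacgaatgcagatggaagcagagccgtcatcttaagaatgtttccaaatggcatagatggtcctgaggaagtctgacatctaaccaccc
Klf6 (chr13:5789405-5789605): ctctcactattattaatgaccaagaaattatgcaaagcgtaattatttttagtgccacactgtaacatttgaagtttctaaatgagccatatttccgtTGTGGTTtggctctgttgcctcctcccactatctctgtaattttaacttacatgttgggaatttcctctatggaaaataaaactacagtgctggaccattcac

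The Rasa3 region lay in intron 2 of Rasa3, which encodes a brake on Ras signalling. The other 3 regions were intergenic and carry the name of the coding gene with the nearest start site, at 100400 bp for Tmem215, 111218 bp for the tropomyosin gene Tpm1 and 71977 bp for the zinc finger gene Klf6.

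Regions with a peak at proB alone were more numerous in WT than in Rescue. Of 87423 regions with a WT proB peak, 14568 had no peak in WT pre-proB or WT preB, which is 16.7%. Of 85877 regions with a Rescue proB peak, 5076 had none in the other Rescue stages, which is 5.91%. The 1358 regions that met both conditions were 9.32% of the WT set (95% interval 8.86 to 9.80%) and 26.8% of the Rescue set (25.6 to 28.0%). These and all later intervals are Wilson intervals and cover counting error only. Of the 1358, 107 also had an Erg KO pre-proB peak, and the remaining 1251 are the members. Of the 14568 WT regions, 9410 (64.6%) carried a peak in no other library, and the part of the single WT proB library in this surplus was not tested. Absence was judged on unlike lists, with 95662 peaks in WT pre-proB and 76465 in WT preB. Rescue pre-proB held 105649 peaks and Rescue preB 84453, and the part of list length was not tested either.

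Among the 21 ways in which exactly 2 libraries can share a region, the pair WT proB and Rescue proB ranked 4. Rescue pre-proB shared 4992 regions with Erg KO pre-proB alone, WT preB and Rescue preB 1708, and WT proB and WT preB 1255. Of the pairs that join WT proB with a Rescue library of another stage, the one with Rescue preB held 729 and the one with Rescue pre-proB 344. WT preB and Rescue proB shared 128. The plot of these pairs gives all 21 counts.

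**Figure D1:**
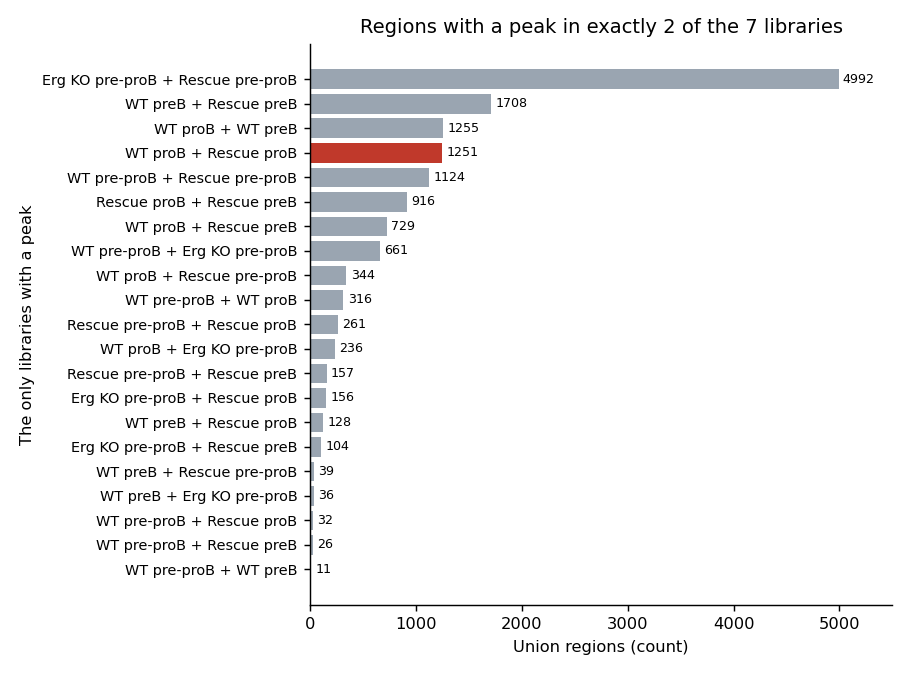
Number of union regions (x axis) for each of the 21 pairs of libraries that alone carry a peak (y axis). The pair WT proB and Rescue proB, in red, holds 1251 regions and ranks behind 4992, 1708 and 1255, and the smallest pair holds 11.

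Members were weak by the standards of their lists. In WT proB their median fold over background was 4.43 (range 2.58 to 27), against 7.57 for the 7543 regions open in proB and preB of both genotypes and in no pre-proB library, and 15.1 for the 46442 regions open in all 7 libraries. In Rescue proB the medians were 3.79 (range 2.67 to 19.8), 6.24 and 15.8 in the same order. The fold is the fragment pileup at the summit over a library-wide background, with 1 added to each. A median member thus had 23 fragments at its summit in WT proB and 16 in Rescue proB. A fragment here is 1 unit of the caller's pileup, whose settings are not stated. The lowest summit called in the other 5 lists had 11 or 12 fragments, and a region listed as absent there could hold fewer fragments than that. Absence therefore means no called peak, not closed chromatin.

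By rank, the median member stood at the 23.8th percentile of the WT proB list by −log10 q and at the 12.9th percentile of the Rescue proB list. In the lowest 10% of the Rescue proB list lay 549 of the 1251 members (43.9%), and in the lowest 10% of the WT proB list 287 (22.9%). Only 15 members stood above the median of the Rescue proB list, against 202 for WT proB, and 2 did so in both. WT proB was the stronger side by percentile in 930 members (74.3%). Percentiles in the 2 lists were weakly related across members, with a Spearman rho of 0.23 over 1251 regions that share the same 2 libraries. Summits lay a median of 49 bp apart, and 976 members (78.0%) had them within 100 bp. For the regions open in proB and preB of both genotypes the median was 38 bp and the share 86.5%.

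**Figure D2:**
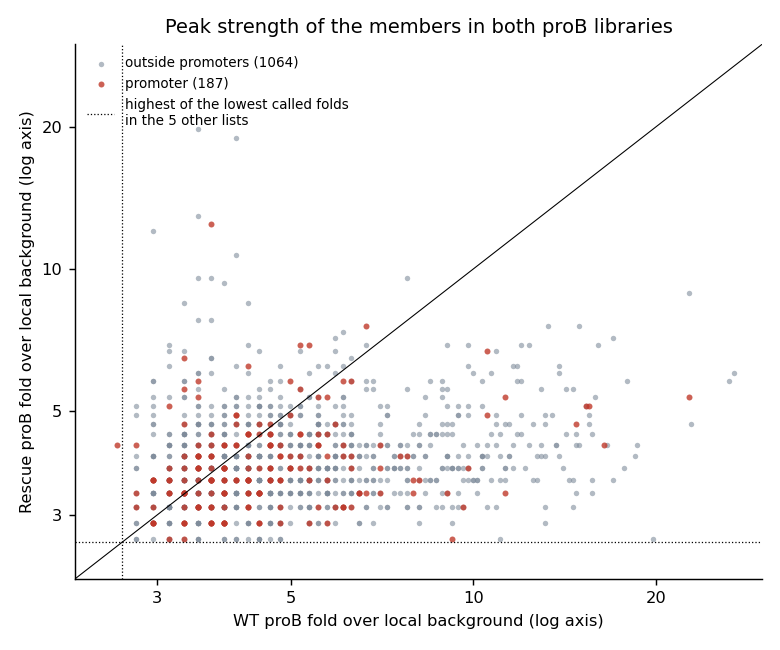
Fold over background of each of the 1251 members in WT proB (x axis, log scale) and Rescue proB (y axis, log scale), with the 187 promoter members in red and the diagonal as a solid line. The background is the library-wide one, although the axis labels call it local. Most points crowd within a few steps of the dotted lines, which mark 2.63, the highest of the lowest called folds of the other 5 lists, and a tail extends along the WT proB axis to 27.

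The rule has a threshold, since a peak in any further list removes a region. At the threshold, the weakest member had a −log10 q of 2.01 in WT proB and the weakest in Rescue proB 1.86. Just outside it, 1093 regions had a peak in both proB libraries and in Rescue preB, 492 in both and in WT preB, and between 61 and 135 in both and in 1 of the pre-proB libraries. That further peak was weak in each case. Its median percentile was 16.2 in Rescue preB, 13.2 in WT preB and 7.12 to 7.58 in the pre-proB lists. Requiring a fold of at least 5.26 in both proB lists, which is 2 times the highest of those lowest called folds, left 64 members.

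The 12 strongest members, ranked by the lower of their percentiles, were mostly intronic or intergenic. One of them, chr4:132356224-132356623, lay in exon 14 of Phactr4, a phosphatase and actin regulator, with a fold of 7.75 in WT proB and 9.58 in Rescue proB, and was the only 1 of the 12 with the higher fold in Rescue proB. Folds below are given in the same order. The St8sia2 region printed above had folds of 15 and 7.57, and the Hemk1 region 16.1 and 6.90.

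A member in intron 5 of Slc25a26, a mitochondrial carrier gene, had folds of 13.3 and 7.57. The Rasa3 region printed above had folds of 12.4 and 6.90, and a member in intron 2 of the phospholipase gene Pla2g6 had 12 and 6.90. Folds for members in intron 2 of Spata31d1b, intron 5 of the mitochondrial ribosome gene Mrps10 and intron 1 of the ubiquitin ligase gene Hecw2 were 17.0, 9.78 and 9.05 in WT proB and 7.13, 6.90 and 6.90 in Rescue proB. The member near Trpa1, an ion channel gene, had folds of 10.9 and 6.68 and lay 159 bp from a Rescue pre-proB peak. Of the 12, only chrX:159458974-159459405 overlapped a promoter, 27 bp from a start site of Map7d2, which encodes a microtubule-binding protein. Its folds were 10.5 and 6.68, and the nearest peak of another library was 16599 bp away.

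Position in the genome was not used by the rule. A start site of any annotated gene lay within 1000 bp of 187 members, or 14.9% (13.1 to 17.0%), and for 135 of these it belonged to a coding gene. Among all union regions the share was 16.2%. In the regions open in all 7 libraries it was 32.8% (32.3 to 33.2%). In the other stage-restricted sets it was lower than in the members, at 9.05% (8.43 to 9.72%) for proB and preB of both genotypes, 6.21% (5.16 to 7.45%) for WT preB and Rescue preB only, 6.08% (5.73 to 6.45%) for the 3 pre-proB libraries only, 10.1% (9.47 to 10.7%) for WT proB only and 8.11% (7.12 to 9.22%) for Rescue proB only. None of those 5 intervals overlapped the interval of the members, which were weaker in WT proB than the proB and preB set, and values by strength follow further on.

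Of the other members, 46 (3.68%) had their summit in an exon, 505 (40.4%) in an intron and 513 (41.0%) between coding genes, near the shares of all union regions at 3.29%, 41.6% and 38.9%. The median distance from summit to the nearest coding start site was 23019 bp. Promoter members had a mean of 10.8 CG dinucleotides in the 201 bp around the summit and the other members 2.92, near the 11.7 and 2.68 of all union regions. Promoter regions of the set open in all 7 libraries had 15, and those of the set open in proB and preB 5.76. About 1 in 10 members had a peak of a given other library within 500 bp, from 9.43% for WT preB to 11.7% for Rescue pre-proB, and 49.2 to 55.2% had one within 5000 bp. For the same 5 libraries the shares within 500 bp were 9.01 to 9.82% in WT proB only and 9.84 to 12.6% in Rescue proB only, ranges that overlap that of the members.

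The EBF1 palindrome lay within 100 bp of the summit in 70 of the 1251 members, or 5.60% (4.45 to 7.01%). Its letters in reversed order, used as a control of the same composition, were found in 8 members (0.639%). The share in all union regions was 1.62%. By set it was 6.43% (5.90 to 7.01%) in regions open in proB and preB of both genotypes, 4.89% (4.47 to 5.34%) in WT proB only, 1.93% (1.38 to 2.70%) in WT preB and Rescue preB only, 0.846% (0.559 to 1.28%) in Rescue proB only and 0.0961% (0.0592 to 0.156%) in the 3 pre-proB libraries only. The share in the members thus overlapped those of the first 2 sets and lay above those of the other 3. Matches sat a median of 30.5 bp from the summit, and 23 of 70 lay within 25 bp.

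ETS letters (ACAGGAA or ACCGGAA on either strand) were found in 230 members, or 18.4% (16.3 to 20.6%), against 8.71% for the reversed letters and 13.2% of all union regions. The share was 19.6% (18.8 to 20.4%) in WT proB only and 13.7% (13 to 14.5%) in regions open in proB and preB. RUNX letters (TGTGGTT) were found in 142 members, or 11.4% (9.71 to 13.2%), against 1.92% for the reversed letters and 10.6% of all union regions. In the 3 pre-proB libraries only the RUNX share was 15% (14.4 to 15.5%), and in regions open in proB and preB it was 7.64% (7.06 to 8.26%). At least 1 of the 3 patterns lay in 393 members (31.4%), and 7 members held both EBF1 and ETS letters.

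The remaining patterns varied between sets. OCT letters (ATGCAAAT) were found in 3.12% (2.29 to 4.23%) of the members, 6.69% (6.15 to 7.28%) of the regions open in proB and preB and 7.15% (6.22 to 8.21%) of Rescue proB only. E-box letters (CAGCTG or CAGGTG), which E2A binds, were found in 28.6% (26.2 to 31.2%) of the members and in 36.2% (35.1 to 37.3%) of the regions open in proB and preB. LEF letters (CTTTGAT), those of the TCF and LEF1 factors, were found in 2.96% (2.15 to 4.05%) of the members, no more than the 3.60% of their reversed letters, but in 6.61% (6.13 to 7.13%) of WT proB only. STAT letters (TTCNNNGAA), of the factors downstream of IL-7, were found in 7.99% of members and their reversed letters in 7.11%. Among all union regions the shares were 2.15% for OCT, 35.1% for E-box, 2.95% for LEF and 5.90% for STAT letters. The members thus lay near all union regions for LEF, above them for OCT and STAT, and below them for E-box letters. For STAT letters the interval of the members (6.62 to 9.63%) overlapped that of their reversed letters (5.82 to 8.67%). The reversed STAT letters were found in 6.82% of all union regions, so the higher STAT share cannot be told apart from base composition.

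**Figure D3:**
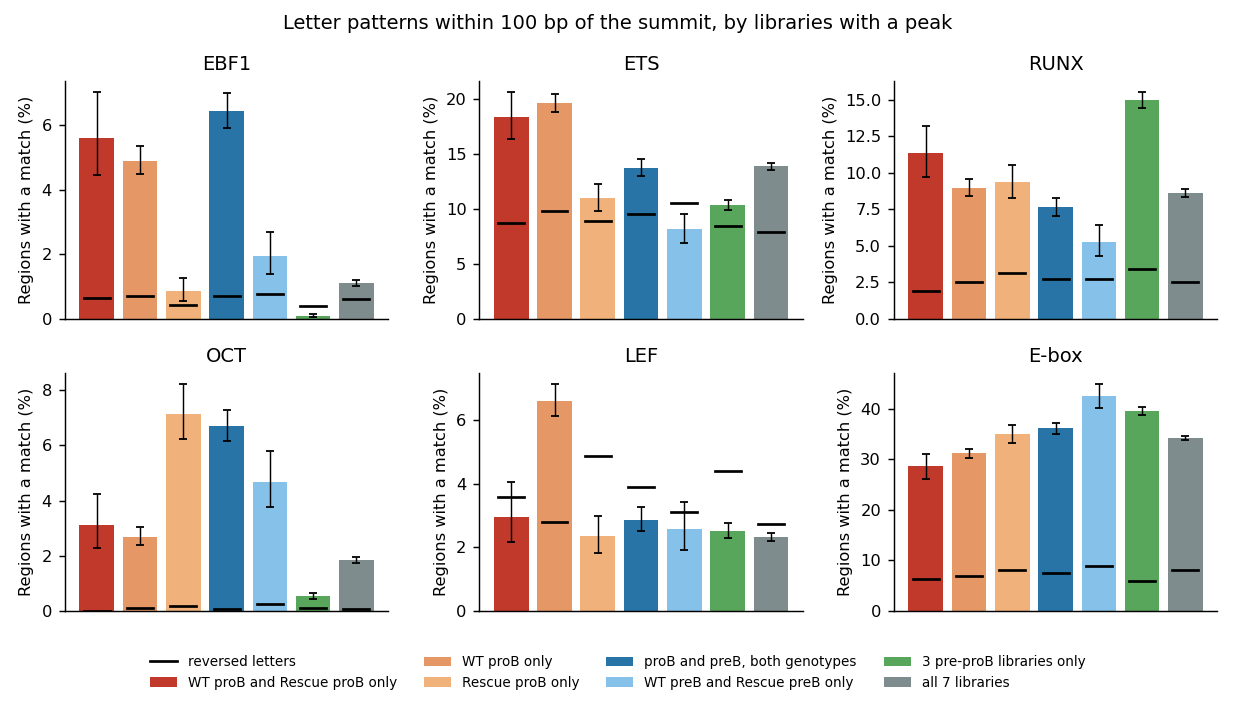
Percent of regions (y axis) with each pattern within 100 bp of the summit, in 7 sets of regions by the libraries that carry a peak. Error bars are 95% Wilson intervals and the short black lines give the same pattern with its letters reversed. The members, in red, hold the EBF1 letters in 5.60% against 0.0961% in the 3 pre-proB libraries only, and the LEF letters in 2.96% against 6.61% in WT proB only. Over all union regions, not drawn, the LEF share was 2.95%.

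The EBF1 share was higher among members with a stronger WT proB peak. With the members cut at the quartiles of their −log10 q in WT proB, it was 1.37% (0.585 to 3.16%), 4.56% (2.63 to 7.80%), 6.79% (4.53 to 10.1%) and 10.4% (7.43 to 14.4%) from weakest to strongest. In the weakest class the reversed letters were as frequent, with 5 matches each. In the strongest class, above a −log10 q of 15.5, it was 6.92% (5.73 to 8.33%) in WT proB only and 7.66% (6.91 to 8.49%) in the regions open in proB and preB. Cut by strength in Rescue proB, the share ran from 4.17% to 7.03%. In the same WT proB classes the promoter share ran from 17.2% (13.7 to 21.4%) in the weakest to 9.73% (6.86 to 13.6%) in the strongest. From weakest to strongest it ran from 9.68% (7.59 to 12.3%) to 8.77% (7.96 to 9.64%) in the regions open in proB and preB, and from 12.7% (11.7 to 13.8%) to 5.97% (4.87 to 7.30%) in WT proB only. In the strongest class the interval of the members thus overlapped both. In the strongest class the LEF share was 4.03% (2.32 to 6.91%) in the members and 10.3% (8.86 to 12%) in WT proB only.

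**Figure D4:**
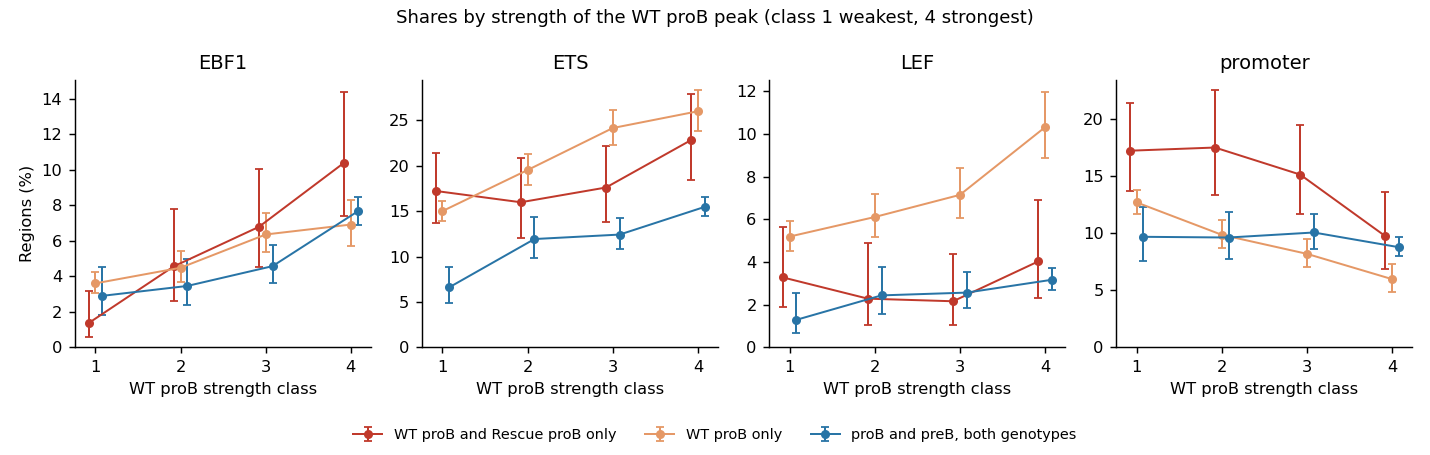
Percent of regions (y axis) with EBF1, ETS or LEF letters, or at a promoter, in 4 classes of WT proB peak strength (x axis) cut at the quartiles of the members, with 95% Wilson intervals. The EBF1 share of the members climbs from 1.37% to 10.4%, and the LEF share of WT proB only stays above that of the members in every class.

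The members fell to 1118 coding genes, 1005 of them with 1 member. A read-through gene model of 4.43 Mb on chromosome 8 that spans 71 coding genes, Gm20388, was given 7 members and is set aside. Next, with 4 members each, came Adam6a, whose members lie in the heavy chain locus described below, and Rras2, which encodes a Ras-family GTPase. Genes were named by their count of members here and in the next paragraph, so their shares describe that choice. For Rras2 the members were 4 of its 30 regions (13.3%, against 0.861% of all union regions). One of them, chr7:114118562-114119124, lay 781 bp before the first base of Rras2 and 48 bp from a WT preB peak, with folds of 5.91 and 4.68. In intron 1 were chr7:114088068-114088383, with folds of 4.80 and 4.23, and chr7:114063491-114063960, with 4.25 and 6.90. The last was intergenic and weaker, with folds of 3.32 and 3.79. Within the gene and 60000 bp on either side every library had peaks, between 13 in WT pre-proB and 25 in Rescue proB.

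**Figure D5:**
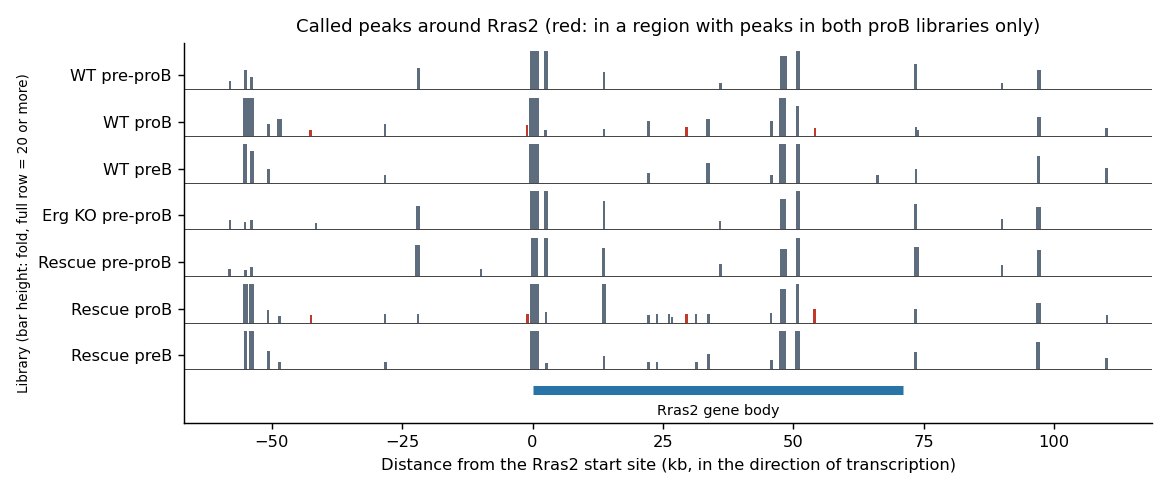
Called peaks of each library (rows) around Rras2, placed by distance from its start site in kb along the direction of transcription, with bar height as fold (a full row is 20 or more). The 4 members, in red, appear in the WT proB and Rescue proB rows only and are lower than the start site peak that all 7 libraries carry.

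Genes with 3 members each included Magi2, a scaffold protein gene, with all 3 at start sites of its own transcripts and WT proB folds of 5.17, 4.25 and 3.88. Ppp1r12a, a myosin phosphatase subunit gene, had folds of 11.8, 9.42 and 7.20 in WT proB and 4.45, 3.34 and 4.90 in Rescue proB. Zc3h12a, which encodes an RNase that degrades inflammatory transcripts, had 3 upstream members, between 43049 and 137898 bp from its start site, with 2 stronger in WT proB (12.2 against 3.79, and 10.3 against 4.01) and 1 in Rescue proB (9.58 against 3.69). The methyl-CpG binding gene Mbd2 had WT proB folds of 4.43 to 6.09. The 3 members given to Setd4 lay 156574 to 317923 bp from it, and 1 of them, chr16:93357953-93358495, had a fold of 22.7 in WT proB and 5.35 in Rescue proB. Klra1, of an NK receptor family with near-identical copies where reads can be shared, had 3 members among 20 regions (15%), all at least 250453 bp away.

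Some members in antigen receptor loci had WT proB folds above 10, with Rescue proB folds of 3.34 to 5.12, and none was among the 12 strongest by the lower percentile. The heavy chain locus Igh, where proB cells recombine, had 4 members among 319 regions (1.25%, against 0.861% of all union regions), nearest to Adam6a by the coding rule. Region chr12:114597635-114598160 overlapped the variable segment Ighv1-10 and had a fold of 15.5 in WT proB and 5.12 in Rescue proB. Region chr12:114462014-114462825 lay 81 bp from Ighv8-2 by its summit, with folds of 11.3 and 3.34. The other 2 lay near Ighv2-6 and Ighd3-1, with WT proB folds of 2.95 and 3.69. The T cell receptor alpha and delta locus had 3 of 114 regions (2.63%), of which chr14:54108572-54109161, 4583 bp from Trdd1, had folds of 11.6 and 3.79. The region at chr14:54146532-54146796 overlapped the delta constant gene Trdc, with folds of 4.80 and 4.01. The T cell receptor beta locus had 1 of 67 regions (1.49%), with folds of 12.9 and 4.23. The Igk light chain locus had 1 of 295 (0.339%). The Igl light chain locus had 0 of 26, which allows a share of up to 11.5%. Variable segments belong to families of near-identical copies, and reads can be shared between them.

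Genes of B-cell development had members at about the background rate. Of the regions given to 22 B-lineage regulators, 10 of 1035 were members (0.966%, against 0.861% of all union regions), in 7 of the 22 genes and none at a promoter. The strongest was chr9:32560488-32561150, 19153 bp from the start site of Fli1, the ETS factor most like Erg, with a fold of 9.78 in WT proB and 6.24 in Rescue proB. Pax5 held a member in intron 5 (chr4:44678730-44679155), with folds of 4.43 and 4.68, and a weaker one in intron 8 with 3.88 and 2.67. Bach2, a repressor that acts at the pre-BCR checkpoint, had a member 76329 bp from its start site with folds of 5.35 and 3.79, and Bcl11a, needed for early lymphoid cells, had 1 in intron 2 with 3.32 and 3.56. Other regulators were named after their values were seen. Ebf1 had a member in intron 6 with folds of 6.09 and 3.12, Sox4 one with 3.88 and 3.12, and Erg itself one in intron 3 (chr16:95436749-95437156) with 2.95 and 4.01, which lay 316 bp from a WT preB peak.

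In the other pathways the counts were small. Among 15 genes of pre-BCR and B-cell receptor signalling, 2 of 228 regions were members (0.877%). The one near Vpreb2, a surrogate light chain gene, had a fold of 5.17 in WT proB and 4.01 in Rescue proB. In IL-7 and cytokine signalling 2 of 246 regions (0.813%) were members. One of them, chr11:100843137-100843759 in intron 1 of Stat5b, the signal transducer of the IL-7 receptor, had 99 fragments at its summit (exact Poisson 95% interval 80.5 to 121) and a fold of 18.5 in WT proB. In Rescue proB it had 17 fragments (9.9 to 27.2) and a fold of 4.01. The other, near the cytokine inhibitor gene Socs2, was stronger in Rescue proB (6.01 against 3.51). Proliferation genes had 3 of 320 (0.938%), given to Myc, Mki67 and Cdk6, with the Myc member 169987 bp from its start site and folds of 3.69 and 6.46. The Mki67 member lay 436326 bp from its start site, with folds of 7.57 and 3.34. The Cdk6 member lay in intron 5, 156075 bp from its start site, with folds of 3.14 and 3.56. Homing and sort markers had 5 of 356 (1.40%), led by a region 110521 bp from the integrin gene Itgb1 with folds of 14.8 and 4.45, followed by Cd93, Cd24a and Cxcr4, with Bst1 as the fifth. Recombination and end joining genes, Rag1 and Rag2 included, had 0 of 63 regions, which allows a share of up to 4.76%.

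Marker genes of other cell types were checked in the same way. T cell genes had 2 of 101 regions (1.98%, against 0.861% of all union regions), given to Gata3 and Tcf7. The Gata3 member was intergenic, 807027 bp from its start site, with folds of 5.72 and 3.79. The Tcf7 member lay in intron 3, 73 bp from a Rescue pre-proB peak, with folds of 5.17 and 3.12. NK and innate lymphoid genes had 1 of 153 (0.654%), at the start site of Klrb1c. Plasmacytoid dendritic genes had 1 of 289 (0.346%), in intron 4 of Tcf4. Stem and progenitor genes had 1 of 169 (0.592%), in intron 2 of Hlf, and erythroid genes 2 of 54 (3.70%). Myeloid genes had 0 of 73, which allows up to 4.11%. These counts of 1 or 2 are too small to set a share apart from 0.861%. Both proB libraries had a peak at the start site of all 15 pre-BCR and B-cell receptor genes. Each of the other cell types was given 10 marker genes. In WT proB and Rescue proB in turn, a start site peak was called at 8 and 8 of the stem and progenitor genes, 7 and 9 of the plasmacytoid dendritic genes, 6 and 7 of the NK and innate lymphoid genes, 5 and 6 of the myeloid genes, and 5 and 5 of both the T cell and the erythroid genes. Of the T cell genes, Gata3, Tcf7 and Lck had a start site peak in both, and Cd3d, Cd3e and Themis in neither. Bcl11b and Cd4 had one in WT proB but not in Rescue proB, and Cd3g and Cd8a the reverse. Whether cells of other types add to the members was not tested.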

How the data were processed

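Nuclei from sorted bone marrow cells were profiled in 7 ATAC-seq libraries, 1 per group, with groups from the titles. According to the study, Bowtie2 placed the reads on mm10 (GRCm38) and MACS2 called the peaks. CASAVA 1.8.2 and Picard appear in the submitters' processing notes. For the aligner and the caller, versions and options (duplicates, shift of read ends) are not stated in those sources, and the methods name sonication where the labels name a Tn5 transposase. These choices set which weak peaks were called.

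Each list held 76465 to 105649 peaks, 1 list per library and none pooled. The deposited score is a whole number, the −log10 q times 10 with its decimals dropped. The fold deposited by the authors is a ratio of summit pileup to background, with 1 added to both. The deposited −log10 p and −log10 q were those of the summit, and summits were deposited as offsets in bp. Folds of each library were whole multiples of 1 step (tolerance 0.02 of a step, 100% of peaks), from which the background pileup followed, 3.49 to 4.60 by library, the only measure of depth. Read totals were not used here.

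Overlapping peaks (1 bp) were merged into union regions. Percentiles rank the −log10 q within a list. Genes came from GENCODE M21 basic and promoters were 1000 bp either side of any start site. A member went to the coding gene whose body held its WT proB summit (the shortest where several did), otherwise to the nearest coding start site. Intron numbers follow the transcript with most exons. Windows reached 100 bp either side of the summit of the WT proB peak, or where WT proB had none of the first of WT preB, WT pre-proB, Rescue proB, Rescue preB, then Erg KO and lastly Rescue pre-proB with a peak, and 19 letter patterns were searched on both strands. No sequence of chromosome 18 was printed. Named were the 12 strongest members, the 10 genes with most members, and up to 4 genes per pathway list. The members, lists and rules were chosen with earlier results of these data known. With 1 library per group no test was run. Wilson and exact Poisson intervals at 95% cover counting error only and treat regions as independent. The Poisson intervals also take each pileup unit as an independent count. The merging and motif code was tested on simulated data. Python 3.11.15, pandas 2.3.3 and SciPy 1.17.1 were used. Alternatives covered thresholds, list length, merging, distance, windows and the source name labels. Some members named by these rules are not reported here.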

Additional observations from a re-analysis of the deposited data

How the results depend on the processing

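The number of members depended on the peak threshold. It was 598 with a −log10 q of at least 10 in every list, of which 69 were among the 1251, since a stricter list also removes the peaks that excluded a region. It was 759 with every list cut to the 76465 peaks of the shortest, of which 365 were among the 1251, 69 with a −log10 q of at least 10 in both proB lists and absence judged on full lists, and 344 with the Rescue stage from the source name, none of them among the 1251. Merging peaks within 500 bp, direct overlap of at least 50% of both peaks, and no other peak within 1000 bp gave 1039, 960 and 884. The promoter share moved to 17.4% (10.2 to 28.0%) in the 69 regions and to 26.1% with a window of 2500 bp, and lay between 13.1 and 15.3% in the other 6 settings. The EBF1 share moved to 11.6% (5.99 to 21.2%) in the 69 regions and to 1.74% (0.802 to 3.75%) with the source name, where the cause was not tested. It lay between 5.27 and 6.87% in the other 7 settings. No paired analysis was possible because every result is a count or share of called peaks in single libraries and none comes from a test. A region without a peak may hold up to 11 fragments at its summit, so weak members cannot be told apart from regions just below the call elsewhere.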

Other observations

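The strongest promoter members of coding genes after Map7d2, by the lower percentile, are given here as values and were chosen after their values were seen. Pex5l, a neuronal relative of a peroxisomal import receptor, had a fold of 6.28 in WT proB and 5.79 in Rescue proB. Kirrel, a cell adhesion gene of the kidney filter, had a member at chr3:87174244-87175040 over its first exon with 6.09 and 5.79. The ribosomal protein gene Rps12 had 5.35 and 6.90, and Aldh8a1, an aldehyde dehydrogenase gene, 5.72 and 5.35. Magi2 had 5.17 and 6.90 at the strongest of its members, and Gabra4, a GABA receptor subunit gene, 5.17 and 5.57.

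CTCF letters, searched by name, were found in 28 members (2.24%, 1.55 to 3.22%) and in 3.5% of all union regions. The share was 6.42% in the regions open in all 7 libraries and lower than in the members in the stage-restricted sets. It was 0.928% (0.735 to 1.17%) in proB and preB of both genotypes and 1.24% (1.04 to 1.49%) in WT proB only. In WT preB and Rescue preB only it was 1.29% (0.852 to 1.94%), an interval that overlapped that of the members. It was 0.793% (0.669 to 0.939%) in the 3 pre-proB libraries only and 0.5% (0.292 to 0.853%) in Rescue proB only. By WT proB strength, CTCF letters were found in 12 of 366 members in the weakest class and in 0 of 298 in the strongest, which allows up to 1.01%. PU.1 letters (GAGGAAGT) were found in 4.08% (3.11 to 5.32%) of members and 7.07% of all union regions.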
